A study of Homo sapiens with 8 samples.

Results

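The cytosolic valine tRNAs were followed through a pulldown of aldehyde-bearing RNA from wild-type (WT) and ALKBH1 knockout (KO) HEK-293 cells, a line from human embryonic kidney, which the labels name so and the study's text names HEK293T. Members were all peaks in the tRNA and rRNA peak lists whose reference name marks a valine tRNA, grouped by anticodon and by reference, a reference being the set of gene copies with 1 mature sequence. They comprised 80 peaks on 13 references, of 924 peaks on 156 cytosolic tRNA references and of 4746 peaks of all kinds. The 13 references stand for 25 gene copies, with 5 references and 12 copies for Val-CAC, 4 and 8 for Val-AAC, and 4 and 5 for Val-TAC.

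Fragments of each genotype's total RNA were incubated with ARP, the aldehyde-reactive probe, a biotin-carrying hydroxylamine that reacts with 5-formylcytidine. A portion was kept as input and the rest was captured on streptavidin (IP), which gave 4 groups of 2 libraries: WT input, WT IP, KO input and KO IP. Inputs and IPs of both genotypes had therefore all received the probe, and all had received a spiked oligonucleotide carrying the modification, which was not analysed here. The KO cells came from single sorted cells after CRISPR/Cas9 editing, so that the effect of the genotype and that of the clone cannot be told apart. The study's text calls its pulldowns biological replicates, but the labels do not say whether the 2 libraries of a group came from separate cultures, and p-values measure only the spread between these libraries. No library listed a peak within the ALKBH1 gene, so the peak lists give no check of the knockout, and the identity of the cells was not tested either.

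Valine tRNAs decode the valine codons that begin with guanosine and uridine. The adenosine at the wobble position of Val-AAC is normally deaminated to inosine, while Val-CAC carries a cytosine and Val-TAC a uridine there. ALKBH1 is a dioxygenase that oxidizes 5-methylcytidine in RNA, best known at the wobble cytosine of cytosolic tRNA-Leu-CAA and mitochondrial tRNA-Met, where 5-formylcytidine is formed. In iCLIP-type libraries a cDNA often stops at a bulky adduct, and each cDNA is counted at the nucleotide before its end on the tRNA, so a peak is a cluster of such stops.

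Several of the 13 references differ from one another at a single nucleotide, which matters for where a peak could be placed. The mature sequences below were read from the GRCh38 genome at RefSeq gene positions (GRCh38.p14), with the anticodon in capitals. They are shown because each pair of lines, in the order Val-CAC-1-1 with Val-AAC-1-1, Val-CAC-2-1 with Val-CAC-4-1 and Val-TAC-1-1 with Val-TAC-2-1, holds references whose peaks are compared in what follows. All 25 gene copies matched a RefSeq gene, and all mature sequences were 73 nt long with the anticodon at positions 34 to 36, counted from 1 at the 5′ end.
tRNA-Val-CAC-1-1: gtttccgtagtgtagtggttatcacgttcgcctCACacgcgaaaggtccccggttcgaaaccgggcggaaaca
tRNA-Val-AAC-1-1: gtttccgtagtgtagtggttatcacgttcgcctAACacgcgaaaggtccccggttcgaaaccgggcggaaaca
tRNA-Val-CAC-2-1: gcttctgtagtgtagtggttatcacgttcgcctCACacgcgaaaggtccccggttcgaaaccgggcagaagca
tRNA-Val-CAC-4-1: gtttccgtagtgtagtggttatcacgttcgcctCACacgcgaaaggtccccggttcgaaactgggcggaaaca
tRNA-Val-TAC-1-1: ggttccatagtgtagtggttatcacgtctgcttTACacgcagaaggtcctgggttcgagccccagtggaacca
tRNA-Val-TAC-2-1: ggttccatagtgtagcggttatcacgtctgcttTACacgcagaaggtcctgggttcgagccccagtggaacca

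Val-CAC-1-1 has 8 identical gene copies, of which TRV-CAC1-1 lies at chr1:161399700-161399772 on the minus strand, and Val-AAC-1-1 has 5, of which TRV-AAC1-1 lies at chr3:169772230-169772302 on the plus strand. Between these 2 references the only substitution was A34C, read from Val-AAC-1-1 to Val-CAC-1-1, so the wobble base alone tells them apart. Val-CAC-2-1 (chr6:27280270-27280342, minus strand) differed from Val-CAC-1-1 at 4 positions, T2C, C6T, G67A and A71G from the latter to the former, all in the acceptor stem. Val-CAC-4-1 (chr1:143803994-143804066, minus strand) differed from Val-CAC-1-1 by C62T alone. Val-TAC-2-1 (chr11:59550987-59551059, minus strand) differed from the 2 identical copies of Val-TAC-1-1, such as TRV-TAC1-1 at chr11:59550629-59550701 on the minus strand, by T16C alone.

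Every valine peak ended upstream of such a difference. Each reference shares the 3′ part of its sequence with another valine gene, and the last position at which it differs from the gene sharing most of that part ranged from position 16 (Val-TAC-1-1 and Val-TAC-2-1) to position 70 (Val-CAC-2-1). All 80 valine peaks ended before that position, and in 8 of the 13 references the outermost peak ended exactly 1 nt before it. The 8 peaks of Val-CAC-1-1 ended at position 32 (both WT IPs) or 33 (all other libraries), against a last differing position of 34. The 8 peaks of Val-CAC-3-1 all ended at 59, against 60, and those of Val-TAC-1-1 ended between 13 and 15, against 16. Val-CAC-2-1, which differs from the other genes as far as position 70, had peaks ending between 59 and 64. A cDNA that ends 3′ of the last differing position reads the same in both genes, so it cannot be given to either; how such reads were treated is not given in the sources used here. Among references of other amino acids whose sequence could be read in the same way, 779 of 791 peaks (98.5%) also ended before the last differing position, against 80 of 80 for valine.

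**Figure D1:**
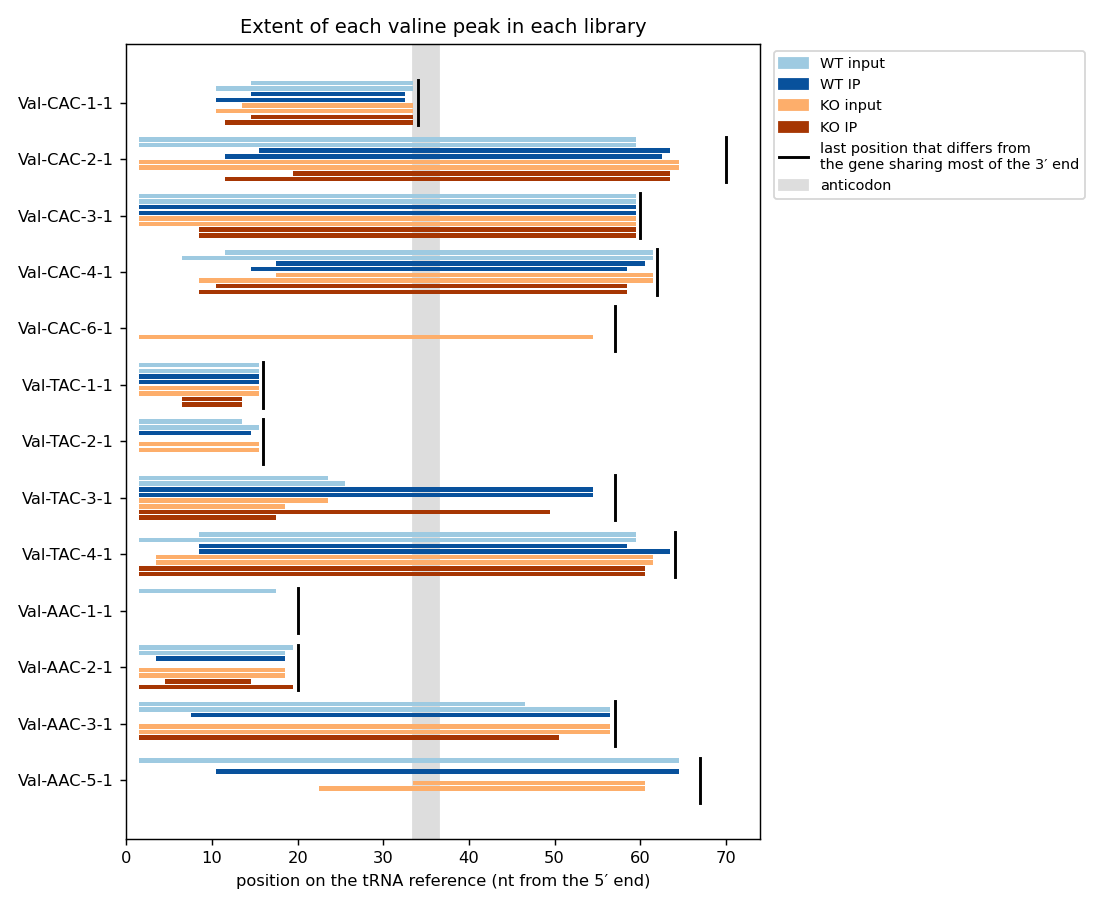
Extent of each valine peak (horizontal bar, position in nt from the 5′ end of the 73-nt reference) in each of the 8 libraries, coloured by group, with the anticodon shaded and a black line at the last position that differs from the gene sharing most of the 3′ end. All 80 bars end to the left of their black line, and the bars of Val-CAC-1-1 stop short of the shaded anticodon.

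The references thus reported on different parts of the molecule. Position 34, the wobble position, lay inside 46 of the 80 valine peaks. It lay inside all 8 peaks each of Val-CAC-2-1, Val-CAC-3-1, Val-CAC-4-1 and Val-TAC-4-1, inside 3 of the 8 peaks of Val-TAC-3-1, and inside none of the 8 peaks of Val-CAC-1-1 or the 8 peaks of Val-TAC-1-1. The count of Val-CAC-1-1 is thus a count of cDNAs placed at positions 11 to 33. Any of these that began 3′ of the anticodon, not only those placed at 33, ran through the wobble base. Position 38, a cytosine of the anticodon loop that the methyltransferase DNMT2 (TRDMT1) is known to methylate in Val-AAC, lay inside all 6 peaks of Val-AAC-3-1 and all 4 peaks of Val-AAC-5-1, but inside none of the 7 peaks of Val-AAC-2-1 or the single peak of Val-AAC-1-1.

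Depth differed between groups. Counts summed over all peaks were 94218 and 98032 (WT input), 65413 and 48380 (WT IP), 194494 and 285539 (KO input), and 53420 and 52137 (KO IP). The lowest count listed was 10 in every library, which corresponds to 35.0 CPM (a library's peak total set to the same sum in all) in the deepest library and 207 in the shallowest, so a missing peak means a lower level in one library than in another. A count within a library does not separate the amount of a tRNA from its capture or from the stops of reverse transcription.

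Valine tRNA made up more of the cytosolic tRNA counts in KO input than in any other group and least in KO IP. The share was 3.51% and 3.28% (WT input), 2.55% and 2.68% (WT IP), 6.05% and 6.15% (KO input), and 1.87% and 1.84% (KO IP). The 4 groups did not overlap, but how often they separate for other amino acids was not counted. Valine tRNA was thus below its input share after the pulldown in both genotypes, and the gap between input and IP was wider in the KO cells from both sides, a higher input and a lower IP. Such a share also depends on the counts of the other tRNAs. In WT cells neither valine sum tested passed in the comparison of IP with input given further on.

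Val-CAC, the reader of the codon that ends in guanosine, had the highest summed count of the 3 isoacceptors in all 8 libraries. A ranking of sums is not one of tRNA amount, since the stretch in which cDNAs could be told apart differed. The last differing position was 34 to 70 for the Val-CAC references. It was 20 for Val-AAC-1-1 and Val-AAC-2-1, 16 for Val-TAC-1-1 and Val-TAC-2-1, and 57 to 67 for the other Val-AAC and Val-TAC references. The level of Val-CAC was 7355 and 7987 CPM (WT input), 5595 and 7544 CPM (WT IP), 11414 and 11501 CPM (KO input), and 3969 and 4738 CPM (KO IP). Input and IP overlapped in WT cells, while the KO inputs lay above and the KO IPs below all other libraries. Val-TAC stood at 2982 and 2652 CPM (WT input), 1957 and 2108 CPM (WT IP), 3851 and 3555 CPM (KO input), and 1722 and 1323 CPM (KO IP). Its 4 groups followed the same order without overlap, which was not counted for other anticodons. The Val-TAC sums held 4 references in every input and in the first WT IP, but 3 in the second WT IP and in both KO IPs. Val-AAC was lowest, at 1369 and 969 CPM (WT input); 749 CPM in the first WT IP and no peak in the second; 1620 and 1618 CPM (KO input); and 449 and 230.2 CPM (KO IP).

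**Figure D2:**
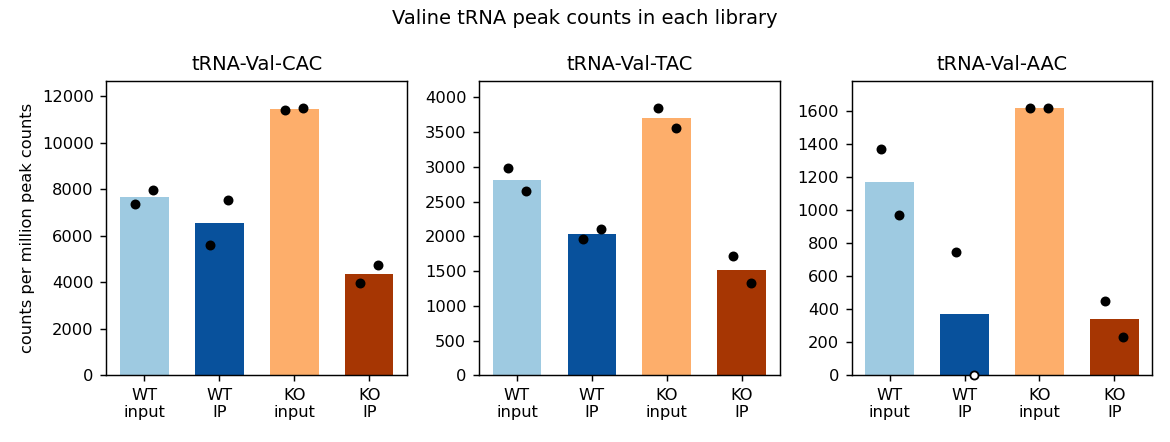
Summed peak counts of tRNA-Val-CAC, tRNA-Val-TAC and tRNA-Val-AAC in CPM (vertical axis, a scale of its own in each panel) by group, with bars at the mean of 2 libraries and points for single libraries; the open point marks the WT IP library with no Val-AAC peak, drawn at 0. KO inputs are highest in all 3 panels, and KO IPs are lowest for Val-CAC and Val-TAC.

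The pulldown was first compared with its input in each genotype by edgeR's quasi-likelihood test, with tRNA counts summed per anticodon and Benjamini-Hochberg adjustment over all features. Values are log2 fold changes after trimmed-mean scaling. In WT cells neither tested sum passed: Val-CAC was at -0.25 (SE 0.20, adjusted p = 0.375) and Val-TAC at -0.49 (SE 0.21, adjusted p = 0.0997), where 51.9% of 189 features passed in either direction. Both values turned positive when the genome peak lists were left out (0.30 and 0.051), and neither passed there. Val-TAC did pass with the replicate number as a block (-0.49, adjusted p = 0.0408), with uncalled features at 0 (-0.51) and with peaks of at least 20 counts only (-0.77). In KO cells Val-CAC fell by 1.58 (SE 0.16, adjusted p = 0.000202) and Val-TAC by 1.47 (SE 0.21, adjusted p = 0.000838) in the IP. In that comparison 56.5% of 193 features passed. Of the 39 cytosolic anticodons tested in KO cells, Val-CAC and Val-TAC ranked 37 and 35 from the highest, and the median over all 39 was -0.23. A sum holds only the references with a peak in that library. For Val-TAC these were 4 in each KO input and 3 in each KO IP, and for Val-AAC 3 in each KO input but 2 and 1 in the KO IPs. The fitted change of the Val-AAC sum, -2.43 (SE 0.32), therefore does not compare the same references, and the one Val-AAC reference listed in all 4 KO libraries, Val-AAC-2-1, fell by 1.56.

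The question the design puts to ALKBH1 is whether the change of a tRNA in the pulldown differed between WT and KO cells. A positive difference also arises where the pulldown lowered a tRNA further in KO than in WT cells. The difference of the 2 IP-against-input changes, WT minus KO, was 1.72 for Val-CAC (SE 0.29, adjusted p = 0.00449) and 1.36 for Val-TAC (SE 0.28, adjusted p = 0.0101) over all 8 libraries, where 26.8% of 138 features passed. The call for Val-TAC was lost without the second KO IP (1.22), with uncalled features at 0 (0.85) and with peaks of at least 20 counts only (1.04). Of 36 cytosolic anticodons tested, Val-CAC ranked 2 and Val-TAC 4 from the highest, against a median of 0.33 for all 36. The highest was Leu-CAA at 4.32 (SE 0.29), whose change was of another kind: it rose by 2.68 in the WT IP and fell by 1.26 in the KO IP, while Val-CAC did not rise in either. Scaling moved the whole distribution of this difference. With peak totals in place of trimmed means the median of all 138 features shifted from 0.19 to -0.35 and Val-CAC stood at 1.17, but relative to the median it was 1.53 and 1.52 under the 2 scalings. Over all features passing, 30 were higher and 7 lower with trimmed means, against 16 higher and 36 lower with peak totals.

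The direct comparisons of genotypes share libraries with the ones above. Between the IPs, Val-CAC was higher in WT by 0.91 (SE 0.21, adjusted p = 0.0270), where 41.5% of 171 features passed, and Val-TAC was at 0.73 (SE 0.24, adjusted p = 0.0624). The call for Val-CAC was lost with peak totals (0.59, adjusted p = 0.0640), with uncalled features at 0 (0.89) and when the second WT IP (0.68), the first KO IP (0.70) or the second KO IP (1.04) was left out. Between the inputs, Val-CAC was lower in WT by a log2 difference of -0.47 (SE 0.089, adjusted p = 0.0347), where 28.6% of 332 features passed, while Val-AAC was at -0.36 (SE 0.21) and Val-TAC at -0.29 (SE 0.12), neither of which passed. The input call was lost with a mean count of at least 50 (-0.33) and in 3 of the 4 fits that left out a library: without the first WT input (-0.41), the second WT input (-0.53) or the first KO input (-0.53). The median cytosolic anticodon went the other way between the inputs, at 0.35 over 45 anticodons, of which 13 were higher and 2 lower in WT. Val-CAC was 1 of those 2.

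**Figure D3:**
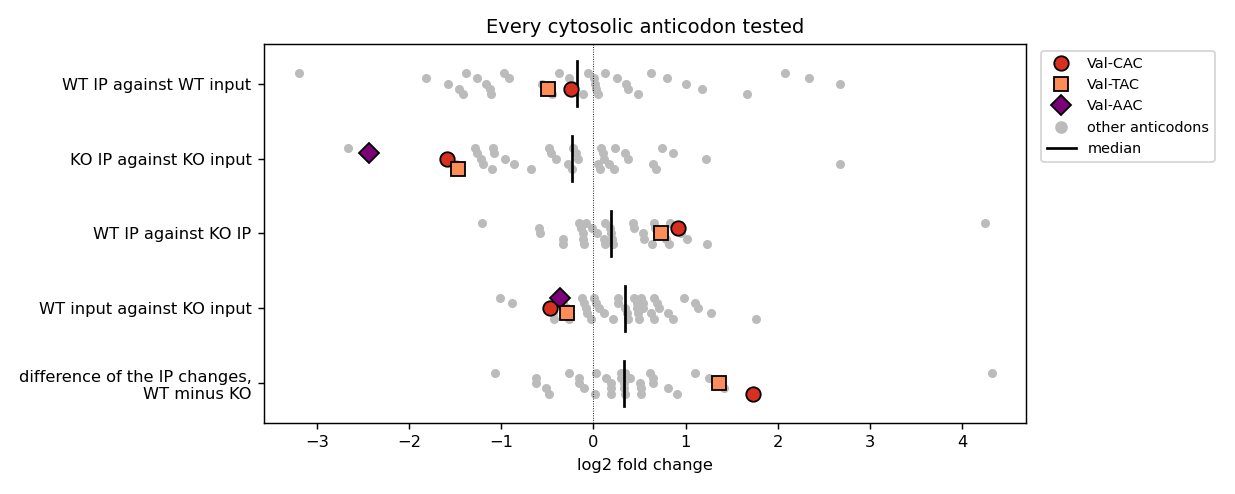
Log2 fold change (horizontal axis) of every cytosolic anticodon tested in the 5 comparisons, with the 3 valine anticodons marked, the others in grey and the median of each row as a black line. Val-CAC lies near the median in the WT pulldown (-0.25), far below it in the KO pulldown (-1.58), and second from the right in the difference of the pulldown changes (1.72).

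The shares of the isoacceptors within valine were compared next. Val-CAC held 62.8% and 68.8% of the valine counts in the WT inputs, 67.4% and 78.2% in the WT IPs, 67.6% and 69.0% in the KO inputs, and 64.6% and 75.3% in the KO IPs. The ranges of the WT inputs, WT IPs and KO IPs overlapped each other and the KO inputs, and the 95% Wilson intervals, which cover counting error only, spanned 59.3% to 81.7% over the libraries. In a test of each anticodon against the others of its amino acid (edgeR's diffSpliceDGE), Val-CAC differed from the valine average by 0.09 (SE 0.26, adjusted p = 0.906) and Val-TAC by -0.28 (SE 0.34, adjusted p = 0.901) in the WT minus KO difference, where 7.41% of 27 anticodons passed. Between the IPs of the genotypes the values were 0.04 (SE 0.20, adjusted p = 0.976) and -0.14 (SE 0.28, adjusted p = 0.976), where 14.8% of 27 passed. A difference between Val-CAC, with its wobble cytosine, and Val-TAC, with a uridine there, was thus not detectable at this depth. Val-AAC could not be tested in this way, and its share was 9.59% and 9.70% in the KO inputs against 7.32% and 3.66% in the KO IPs.

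Across the 8 libraries the anticodon with the profile most like that of Val-CAC was Val-TAC (Pearson r = 0.93 of log2 scaled CPM, among 36 anticodons with a peak in every library), followed by Trp-CCA at 0.84 and Arg-ACG at 0.78. For Val-TAC the nearest after Val-CAC were Arg-ACG at 0.79 and Gly-CCC at 0.76. These 8 points fall into 4 groups and share library depth, so the coefficients are descriptions.

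Other groups of tRNAs are given for scale. Of the 15 other anticodons with a wobble cytosine, 13 had a peak in every library. In the WT minus KO difference 4 of these were higher and none lower, with a median of 0.30, against 8 higher and none lower and a median of 0.33 for all 36 cytosolic anticodons. The known DNMT2 substrates other than Val-AAC gave lower values: Asp-GTC was at -0.62 (SE 0.29, adjusted p = 0.132) and Gly-GCC at 0.019 (SE 0.20, adjusted p = 0.943). Val-AAC itself could not be tested there because 1 WT IP listed no peak. With that library set to 0 its difference was 0.63 with an SE of 2.26.

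Single references were tested next, each as its own feature. Of the 13, 7 had a peak in all 8 libraries: Val-CAC-1-1, Val-CAC-2-1, Val-CAC-3-1, Val-CAC-4-1, Val-TAC-1-1, Val-TAC-3-1 and Val-TAC-4-1. In the WT minus KO difference 6 of these 7 were higher and none lower, where 30.1% of 186 regions passed in either direction. The exception was Val-TAC-3-1. By DESeq2 the count was 3, where 51 of 186 regions passed. In the KO pulldown 7 of 8 references tested fell, where 56.5% of 246 regions passed. In the WT pulldown none of 7 passed by edgeR, where 48.1% of 243 regions did. At an unadjusted threshold of 0.05 the count was 2, Val-CAC-4-1 and Val-TAC-3-1, where 131 of 243 regions lay below it. After adjustment by DESeq2 the count was 0, where 87 of 243 regions passed. With the replicate number as a block 3 passed, where 136 of 243 regions did: Val-CAC-2-1 (-0.72), Val-CAC-4-1 (0.76) and Val-TAC-3-1 (-1.41). Between the IPs 3 of 7 were higher in WT, where 37.3% of 220 regions passed, a share near the background, and 1 passed by DESeq2 or without either KO IP. Between the inputs 3 of 10 were lower in WT, where 35.2% of 400 regions passed, likewise near it, and 0 or 1 passed when any of the 4 input libraries was left out.

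Val-CAC-1-1, the reference with most gene copies, showed the largest WT minus KO difference of the 7 valine references tested over all 8 libraries. Its counts were 209 and 261 (WT input), 155 and 154 (WT IP), 598 and 951 (KO input), and 50 and 52 (KO IP). Its peaks ended at position 32 in both WT IPs and at 33 in the other libraries. The WT IP counts were thus not taken over the same nucleotides, and the part of this in the differences was not tested. Both WT IPs held about as large a part of their library as the WT inputs, whereas the KO IPs lay far below the KO inputs. The change was 0.12 (SE 0.24, adjusted p = 0.708) in the WT pulldown, and it fell by 1.82 (SE 0.17, adjusted p = 0.000324) in the KO pulldown. The difference was 2.28 (SE 0.30, adjusted p = 0.00126). Between the IPs it was higher in WT by 1.77 (SE 0.27, adjusted p = 0.00107). Both calls passed in each of the alternatives that gave a value, between 1.91 and 2.33 for the first and between 1.52 and 1.97 for the second. The input difference was -0.35 (SE 0.13, adjusted p = 0.0982).

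Val-CAC-2-1, the other Val-CAC reference with high counts, behaved differently between the IPs. Its counts were 272 and 319 (WT input), 103 and 116 (WT IP), 1014 and 1438 (KO input), and 96 and 120 (KO IP). Its peaks started at position 2 in the inputs and between 12 and 20 in the IPs, so input and IP counts were not taken over the same nucleotides. They ended at 59 in both WT inputs and at 64 in both KO inputs, so the input counts of the genotypes were not either. The IP counts of the genotypes overlapped, with a log2 difference of 0.20 (SE 0.29, adjusted p = 0.624). It was at -0.69 (SE 0.28, adjusted p = 0.105) in the WT pulldown and fell by 1.42 (SE 0.18, adjusted p = 0.000899) in the KO pulldown. Its WT minus KO difference of 1.05 (SE 0.32, adjusted p = 0.0408) stood beside an input difference of -0.70 (SE 0.12, adjusted p = 0.0248), WT being lower. The input call was lost in all 4 fits that left out a library, at -0.81 to -0.61, and held in the 9 other alternatives. The WT minus KO difference passed only without the first WT IP and was lost in the other 7 fits that left out a library, at 0.75 to 1.25. It was also lost in 7 of 9 other alternatives, down to 0.68 with peak totals.

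Counts of these 2 references within a library need no scaling between libraries. The ratio of Val-CAC-1-1 to Val-CAC-2-1 was 0.768 and 0.818 (WT input), 1.505 and 1.33 (WT IP), 0.590 and 0.661 (KO input), and 0.521 and 0.433 (KO IP). The WT IPs were the only libraries in which Val-CAC-1-1 exceeded Val-CAC-2-1. The mean ratio was 1.42 in the WT IPs and 0.477 in the KO IPs, and an exact two-sided permutation test gave p = 0.333, the smallest value that 2 against 2 libraries allow. Tested within Val-CAC over all 8 libraries, Val-CAC-1-1 departed from the other references by 0.74 (SE 0.30, adjusted p = 0.415) and Val-CAC-2-1 by -0.48 (SE 0.27, adjusted p = 0.685). By this test 0 of 76 references of any anticodon passed (0%), with 9 at an unadjusted p under 0.05, so a difference between the 2 references was not established after adjustment. The peaks of the 2 also cover different parts of the tRNA, Val-CAC-1-1 ending before the anticodon and Val-CAC-2-1 running through it.

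**Figure D4:**
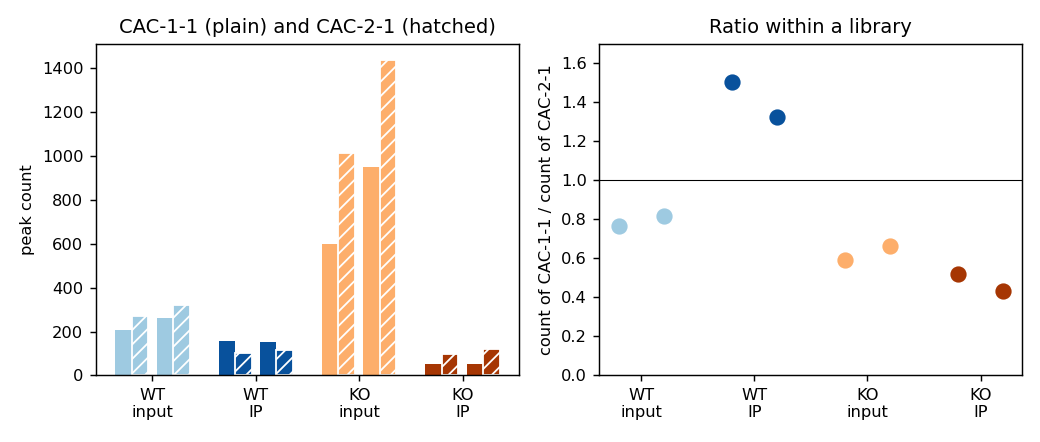
Left, peak counts (vertical axis) of Val-CAC-1-1 (plain bars) and Val-CAC-2-1 (hatched bars) in each of the 8 libraries, 2 per group; right, their ratio within each library. The ratio lies above 1 in both WT IPs (1.505 and 1.33) and below 1 in the other libraries.

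Val-CAC-4-1 had the lowest counts of the 4 Val-CAC references with a peak in every library. It had 33 and 27 counts (WT input), 42 and 23 (WT IP), 81 and 142 (KO input), and 17 and 15 (KO IP). Its scaled level was 642 and 475 CPM in the WT IPs against 350 and 275 CPM in the WT inputs, and the log2 change of 0.77 (SE 0.27) had an adjusted p of 0.0775. In the KO pulldown it was at -0.69 (SE 0.22, adjusted p = 0.0345), a call lost without the second KO input, the first KO IP or the second KO IP (-0.64 to -0.79) and in 4 of 8 other alternatives, DESeq2 among them (adjusted p = 0.472). The WT minus KO difference was 1.83 (SE 0.35, adjusted p = 0.00653), lost without the second WT input (1.35), with DESeq2 (1.65) and with uncalled features at 0 (1.49), and the IPs differed by 1.15 (SE 0.34, adjusted p = 0.0275). The IP call was lost with peak totals (0.89), with DESeq2 (1.11), with uncalled features at 0 (1.13) and in 3 of the 4 fits that left out a library, those without the first WT IP (0.90), the first KO IP (1.19) or the second KO IP (1.00).

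Val-CAC-3-1, encoded on chr19:4724635-4724707 of the minus strand, lay between these. Its counts were 179 and 176 (WT input), 66 and 72 (WT IP), 527 and 738 (KO input), and 49 and 60 (KO IP). Its peaks started at position 9 in both KO IPs and at 2 in the other libraries, so these counts were not taken over the same nucleotides. It was at -0.63 (SE 0.27, adjusted p = 0.124) in the WT pulldown and fell by 1.45 (SE 0.20, adjusted p = 0.00116) in the KO pulldown, and the difference of 1.16 (SE 0.31, adjusted p = 0.0282) was lost in 6 of the 8 fits that left out a library, at 0.81 to 1.17, all but those without the first WT IP or the second KO IP, and in 5 of 9 other alternatives, down to 0.78 with peak totals. The fifth Val-CAC reference, Val-CAC-6-1, had a single peak of 15 counts in the second KO input.

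**Figure D5:**
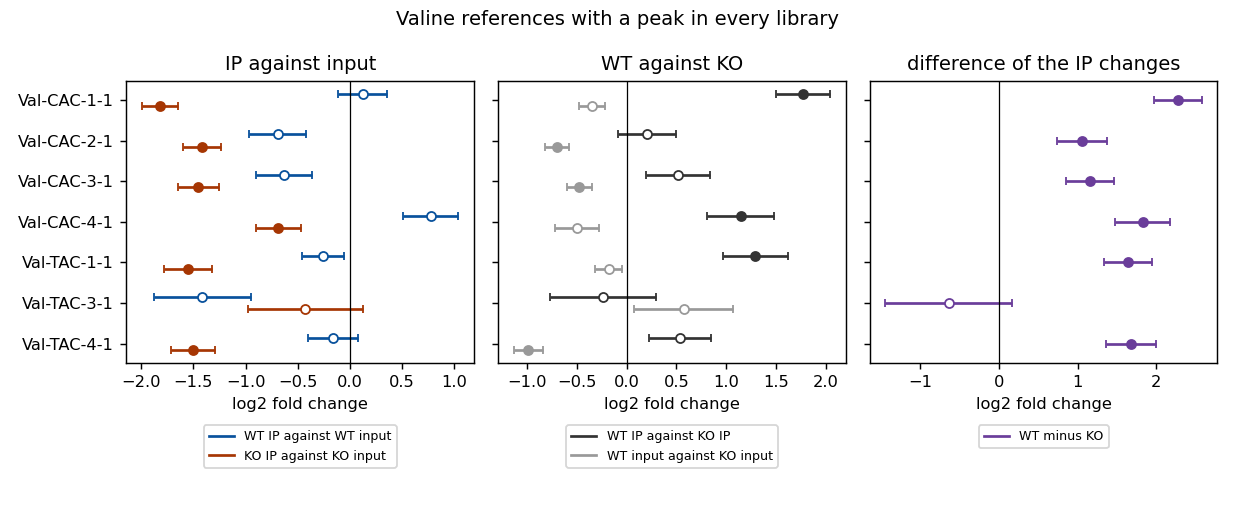
Log2 fold changes with standard errors (horizontal axes) of the 7 valine references with a peak in every library: each pulldown against its input, WT against KO in IPs and in inputs, and the WT minus KO difference of the pulldown changes. Filled points passed at an adjusted p of 0.05; 6 of the 7 references passed in the right panel and none passed for the WT pulldown in the left one.

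Among the Val-TAC references, Val-TAC-1-1 had 79 and 84 counts (WT input), 47 and 37 (WT IP), 190 and 286 (KO input), and 22 and 16 (KO IP). The WT minus KO difference was 1.64 (SE 0.30, adjusted p = 0.00630), lost only with uncalled features at 0 (1.32), and the IPs differed by 1.29 (SE 0.32, adjusted p = 0.0143). The IP call was lost with DESeq2 (adjusted p = 0.173), with uncalled features at 0 (adjusted p = 0.0693) and without the first KO IP (1.49) or the second KO IP (1.03). Its peaks lay upstream of position 16 in every library. They ran from position 7 to 13 in both KO IPs, against 2 to 15 in the other 6 libraries. The KO IP counts were thus taken over fewer nucleotides, and the part of this in the differences was not tested.

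Val-TAC-4-1 had 83 and 102 counts (WT input), 53 and 48 (WT IP), 387 and 553 (KO input), and 35 and 43 (KO IP). Its peaks ended at position 59 in both WT inputs and at 61 in both KO inputs. The input counts of the genotypes were thus not taken over the same nucleotides, and the part of this in the differences was not tested. Its WT minus KO difference was 1.68 (SE 0.31, adjusted p = 0.00630). Its input difference was the wider one, with WT below KO by a log2 difference of -0.99 (SE 0.14, adjusted p = 0.0217), which was the widest input gap among the valine references tested. The 4 fits that left out a library gave -1.13 to -0.87, and the call was lost in 3 of them. It held in the 9 other alternatives. The IPs differed by 0.53 (SE 0.31, adjusted p = 0.234). Its sequence is closer to Val-CAC-1-1, with 6 differences, than to Val-TAC-1-1.

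Val-TAC-3-1 was the only reference tested that did not follow the others. It had 98 and 50 counts (WT input), 17 and 17 (WT IP), 134 and 109 (KO input), and 35 and 10 (KO IP). The KO IPs thus disagreed widely, and the WT minus KO difference was -0.63 with an SE of 0.80 (adjusted p = 0.590). It was 0.48 without the first KO IP. The end of its peak also moved: both WT IP peaks ended at position 54, the KO IP peaks at 49 and 17, and the 4 input peaks between 18 and 25. A longer peak takes in cDNA ends that a shorter one leaves out, so its counts were not taken over the same nucleotides. Val-TAC-2-1 had 21 and 24 counts (WT input), 11 (first WT IP) and 38 and 67 (KO input), and no peak in the second WT IP or either KO IP.

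Val-AAC counts were low throughout the IPs. Val-AAC-2-1 had 42 and 43 counts (WT input), 10 in the first WT IP and no peak in the second, 135 and 191 (KO input), and 14 and 12 (KO IP), and fell by 1.56 (SE 0.23, adjusted p = 0.00160) in the KO pulldown. Val-AAC-3-1 had 41 and 52 counts (WT input), 142 and 218 (KO input), 11 in the first WT IP and 10 in the first KO IP. Val-AAC-5-1 was listed in 4 libraries, with 34 counts in the first WT input, 28 in the first WT IP, and 38 and 53 in the KO inputs. Val-AAC-1-1, with 5 gene copies, had a single peak of 12 counts in the first WT input. It shares 39 nt of its 3′ end with Val-CAC-1-1 and 53 nt with Val-AAC-2-1, so only cDNAs that reach position 20 tell it from both.

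A peak filter modelled on the methods of the study was then applied to the valine references. It asked for a peak in both IP replicates with a score above 10, and for no input peak or an enrichment over input of more than 1.5. Taking ratios in CPM, averaging them over replicates and counting any overlap of 1 nt were choices made here. In WT cells 7 valine references had a peak in both IPs and 1 was kept, Val-CAC-4-1, with ratios of 1.83 and 1.73. Val-CAC-1-1 had a mean ratio of 1.13 and was not kept, nor were the other 5, at 0.469 to 0.937. In KO cells 7 references had a peak in both IPs and none was kept, with mean ratios of 0.302 to 0.671. For ALKBH1-dependent sites the study also asked that a peak be missing from the KO controls. Val-CAC-4-1 had a peak in both KO IPs and did not meet that condition, at a mean WT to KO ratio of 1.84. With ratios of raw counts none was kept in WT cells. The study itself names Val-CAC among the tRNAs found both by its ARP pulldown and among the top hits of its separate crosslinking experiment. It also reports ALKBH1-dependent pyridine borane mutations in the anticodon of Val-CAC. At another position of this tRNA it reports a site that did not depend on ALKBH1 and that it leaves for further study. In vitro it counts the Val-CAC anticodon stem loop among the most active ALKBH1 substrates. By mass spectrometry it found the 5-formylcytidine level of this tRNA unchanged in KO cells.

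Reads that mapped uniquely to the genome after the tRNA step also formed peaks at valine tRNA genes, with 6 and 7 loci listed (WT input), 7 and 7 (WT IP), 8 and 13 (KO input), and 1 in each KO IP. All listed peaks numbered 608 and 592 (WT input), 568 and 414 (WT IP), 744 and 1047 (KO input), and 402 and 371 (KO IP). The lowest count listed equals 51.4 and 35.0 CPM in the KO inputs but 187 and 192 CPM in the KO IPs. A locus missing from the KO IPs can thus lie below what they could list. At TRV-AAC3-1 (chr6:27650928-27651000, minus strand) the peaks held 53 and 57 counts (WT input), 62 and 41 (WT IP) and 61 and 96 (KO input), and no peak was listed in the KO IPs.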

How the data were processed

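ARP pulldowns and inputs gave 8 libraries, 2 for each of WT input, WT IP, KO input and KO IP. According to the study's methods, the authors removed PCR duplicates by unique molecular identifiers, mapped reads with STAR to tRNA and rRNA and the remainder to GRCh38, and called peaks in each library with Paraclu. The deposited files give each peak's position and its count of cDNAs, the count being the unit used. The handling of reads that match several tRNA genes is not given in the sources used here.

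Peaks of all libraries overlapping by at least 1 nt on a strand were merged, and tRNA peaks were also summed per anticodon. Only features listed in all libraries that a comparison used entered its test (edgeR 4.0.16, R 4.3.3; quasi-likelihood, trimmed-mean scaling, Benjamini-Hochberg adjustment over all features, threshold 0.05). DESeq2 1.42.0, other scalings and filters, and leaving out each library were alternatives. Fits were tested on simulated data. Uncalled features were missing, not 0, but an uncalled reference added nothing to its anticodon's sum. Intervals and p-values cover counting error and the spread between 2 libraries only. All valine references were described, whatever their values. Members, comparator lists and tests were chosen with earlier results of these data known. Mature sequences were read from the GRCh38 genome with RefSeq gene positions, the strand being that on which the named anticodon lies at its place in the gene; 472 of 491 tRNA genes could be read so.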

Additional observations from a re-analysis of the deposited data

Results flagged for a closer look

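A different pulldown change in WT and KO cells, by the test of that difference itself, was found for 8 of 9 valine features tested (2 sums, 7 references), where 26.8% of all sums and regions passed at the anticodon level and 30.1% at the level of single references, given as the log2 change in WT minus that in KO. The values were 1.72 for Val-CAC and 1.36 for Val-TAC as sums, 2.28 for Val-CAC-1-1, 1.05 for Val-CAC-2-1, 1.16 for Val-CAC-3-1, 1.83 for Val-CAC-4-1, 1.64 for Val-TAC-1-1 and 1.68 for Val-TAC-4-1. Among alternatives other than leaving out a library, the call was lost in 7 of 9 for Val-CAC-2-1, 5 of 9 for Val-CAC-3-1, 2 of 7 for Val-CAC-4-1, 2 of 8 for Val-TAC and 1 of 8 for Val-TAC-1-1. With a library left out it was lost in 7 of 8 for Val-CAC-2-1, 6 of 8 for Val-CAC-3-1 and 1 of 8 each for Val-CAC-4-1 and Val-TAC. It held throughout for Val-CAC, Val-CAC-1-1 and Val-TAC-4-1. The sums and their references share counts and are not separate evidence. The KO inputs, which were the deepest libraries and held the highest valine share (6.05% and 6.15% of cytosolic tRNA counts), enter all 8 values, and their part in the difference was not tested. Groups of 2 libraries are too small for a test of single outlying libraries.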

How the results depend on the processing

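Of the alternatives, 131 of 151 for anticodon sums, 428 of 516 for references and 103 of 109 for shares within an amino acid or anticodon left direction and call as they were. The cause of the changes that follow was not tested. With only the tRNA and rRNA lists, the WT pulldown changes turned positive for Val-CAC (0.30), Val-TAC (0.051), Val-TAC-1-1 (0.029) and Val-TAC-4-1 (0.12), and the IP difference of Val-TAC passed (0.98). With a mean count of at least 50, the WT pulldown changes of Val-TAC-1-1 (0.027) and Val-TAC-4-1 (0.12) turned positive, the IP difference of Val-TAC passed (0.91) and the input difference of Val-CAC (-0.33) did not. With peak totals, the IP difference of Val-CAC (0.59) no longer passed and that of Val-CAC-2-1 changed sign (-0.051). With uncalled features at 0, Val-TAC passed in the WT pulldown (-0.51), while the IP difference of Val-CAC (0.89) and the WT minus KO difference of Val-TAC (0.85) did not. With peaks of at least 20 counts only, Val-TAC passed in the WT pulldown (-0.77), its WT minus KO difference did not (1.04), its share in WT IP was 19.6% and that of Val-AAC in KO IP was 0%.

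The number of references called moved with the setting. In the WT pulldown it was 1 with RLE scaling, peaks of at least 20 counts or the tRNA and rRNA lists only. There 121 of 243, 91 of 166 and 66 of 128 regions passed. In the KO pulldown it was 4 with peaks of at least 20 counts, where 106 of 179 regions passed. Between the IPs DESeq2, uncalled features at 0, a mean count of at least 50 or peaks of at least 20 counts gave 1. There 54 of 220, 199 of 467, 66 of 138 and 62 of 164 regions passed. Between the inputs 5 were called with uncalled features at 0, peaks of at least 20 counts or the tRNA and rRNA lists only. There 356 of 822, 130 of 275 and 83 of 173 regions passed. For the WT minus KO difference it was 3 with DESeq2 or a mean count of at least 50. There 51 of 186 and 56 of 166 regions passed. The number was 2 with uncalled features at 0 or peaks of at least 20 counts, where 90 of 965 and 47 of 138 passed. The peak filter modelled on the study kept 0 references in WT with a score above 100 or with ratios of unscaled counts.

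Leaving out each library in turn gave ranges of -0.52 to 0.081 for Val-CAC in the WT pulldown, 0.68 to 1.16 for its IP difference and -0.53 to -0.41 for its input difference. The WT minus KO difference of Val-TAC ranged from 1.22 to 1.47 and was lost without the second KO IP (1.22). Shares within valine ranged from -0.056 to 0.13 for Val-CAC between the IPs, -0.0073 to 0.17 for Val-CAC in the WT minus KO difference, and -0.36 to 0.11 for Val-TAC between the IPs. Among references the ranges with a change of sign were -0.25 to 0.049 for Val-TAC-4-1 in the WT pulldown, -0.091 to 0.48 for Val-CAC-2-1 between the IPs, -0.017 to 0.25 for Val-TAC-2-1 between the inputs, -0.17 to 0.70 for the share of Val-CAC-4-1 within Val-CAC, and, for Val-TAC-3-1, -1.48 to 0.035 in the KO pulldown, -0.92 to 0.87 between the IPs, -0.013 to 1.02 between the inputs and -1.38 to 0.48 for the WT minus KO difference. The number of references called ranged from 0 to 1 in the WT pulldown, 1 to 3 between the IPs, 0 to 1 between the inputs and 3 to 6 for the WT minus KO difference.

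Replicate numbers are shared between groups, but 2 pairs do not show that they pair cultures. With a replicate block Val-TAC passed in the WT pulldown (-0.49). There 3 references were called, where 136 of 243 regions passed. Calls between the inputs over all anticodon-level features went from 95 to 182. Low counts limit Val-AAC most, with at most 49 in any IP in the tRNA and rRNA lists. Peaks at Val-AAC genes in the genome lists are not part of that number.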
